A study of Mus musculus with 6 samples.

Results

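Promoter loops whose ends lie on different chromosomes were examined in 6 lists of loops from mouse embryonic stem cells. A loop joins a bait, a captured promoter fragment, to another end, and every list entry with ends on different chromosomes was taken, apart from the loops of 1 bait on chromosome 2 (chr2:98661117-98662976). This gave 17288 of the 107701 list entries, or 10204 different loops when those with identical ends were counted once. They came from 5031 of 19070 baits (26.4%).

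The cells were E14TG2a, a male mouse embryonic stem cell line grown with serum and leukaemia inhibitory factor, here wild type in genotype. They were transfected with esiRNA, short interfering RNA made by enzymatic digestion, and collected 48 h later. The esiRNA was directed against EGFP in Control, against Smarca4, which encodes the remodelling ATPase Brg1, in Brg1KD, and against Ino80, the ATPase of the INO80 remodeller, in Ino80KD. All groups therefore received esiRNA, and there were 2 libraries per group. Replicate 1 of every group belonged to batch 1, Control 2 to batch 2, and Brg1KD 2 and Ino80KD 2 to batch 3. The labels do not state that replicates came from separate cultures, so p-values reflect only the spread between these libraries, which may be technical. RNA was not measured, so neither knockdown was checked and the cell type could not be tested against its markers. Without read counts in the lists, library depth is unknown. A loop missing from a list scored under the authors' minimum of 5 and is not shown to be absent.

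In the nucleus each chromosome occupies a territory of its own, and contacts between chromosomes are far rarer than contacts along one. Mouse chromosomes carry the centromere at one end, and the regions around centromeres gather into chromocentres, while telomeres mark both ends. Sequencing reads are placed by sequence, and processed pseudogenes, which are copies of messenger RNAs inserted elsewhere in the genome, resemble the genes they came from.

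Some interchromosomal loops joined loci that carry the same sequence at the ends or within 2 kb of them, and these are printed to show what is shared. The mature miRNA is given in lower case with its seed, bases 2 to 8, in capitals (RefSeq, GRCm38.p6). The copies of miR-1906 lie at chr12:109544588-109544609 on the plus strand and chrX:88759485-88759506 on the minus strand. Those of miR-8099 lie at chr3:95139131-95139151 on the minus strand and chr12:93927373-93927393 on the plus strand.
Mir1906-1: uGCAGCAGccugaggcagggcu
Mir1906-2: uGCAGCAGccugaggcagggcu
Mir8099-1: cCAAGGCGugggaaagguugu
Mir8099-2: cCAAGGCGugggaaagguugu
Both members of each pair have the same mature sequence, and the 2 Mir8099 hairpins of 127 bases were identical too. The loop between the miR-1906 copies, from the bait at chr12:109543378-109546737 to chrX:88759573-88761432, scored 50.2 and 14.95 in Control, 41.3 and 46.3 in Brg1KD and 58.4 and 45.75 in Ino80KD. The loop between the miR-8099 copies scored 13.7 and 40.8 in Control, 57.5 and 40.1 in Brg1KD and 49.2 and 95.7 in Ino80KD. Both loops were thus listed in all 6 libraries. Mir1906-2 and Mir8099-2 lie just outside the looping fragments, within the 2 kb used to name an end, while Mir1906-1 and Mir8099-1 lie inside them.

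Also 3 pairs of promoters at the ends of loops listed in 5 or 6 libraries shared sequence. Printed are the 250 bases before each gene's start, 5′ to 3′ on the gene's strand, with stretches of at least 25 bases that recur in the partner in capitals (RefSeq, GRCm38.p6). Igfbp7, which encodes an insulin-like growth factor binding protein, lies on the minus strand (chr5:77408046-77408295) and Gm46840 on the plus strand (chr4:3230932-3231181).
Igfbp7: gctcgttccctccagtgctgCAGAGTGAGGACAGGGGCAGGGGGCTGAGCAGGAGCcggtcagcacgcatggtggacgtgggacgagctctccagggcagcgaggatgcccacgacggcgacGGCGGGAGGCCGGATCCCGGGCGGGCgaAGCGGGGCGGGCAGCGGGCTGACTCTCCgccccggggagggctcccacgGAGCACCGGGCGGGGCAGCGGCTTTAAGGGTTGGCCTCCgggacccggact
Gm46840: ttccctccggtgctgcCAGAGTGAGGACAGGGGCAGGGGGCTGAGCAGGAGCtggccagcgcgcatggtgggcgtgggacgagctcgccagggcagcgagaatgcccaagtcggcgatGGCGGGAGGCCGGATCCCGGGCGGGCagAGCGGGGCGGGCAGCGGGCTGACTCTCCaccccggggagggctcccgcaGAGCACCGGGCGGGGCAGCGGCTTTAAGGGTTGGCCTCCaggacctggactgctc
Shared stretches covered 129 of the 250 bases, the longest being 39 bases. The vomeronasal receptor genes Vmn2r121 (chrX:124135911-124136160, minus strand) and Vmn2r129 (chr4:156330853-156331102, plus strand) shared 186 of 250 bases.
Vmn2r121: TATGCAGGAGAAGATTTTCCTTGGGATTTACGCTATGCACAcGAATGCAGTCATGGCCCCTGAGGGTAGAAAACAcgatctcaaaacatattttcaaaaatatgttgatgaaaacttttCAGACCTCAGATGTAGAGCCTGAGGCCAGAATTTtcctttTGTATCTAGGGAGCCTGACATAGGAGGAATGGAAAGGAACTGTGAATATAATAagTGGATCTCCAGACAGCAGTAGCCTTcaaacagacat
Vmn2r129: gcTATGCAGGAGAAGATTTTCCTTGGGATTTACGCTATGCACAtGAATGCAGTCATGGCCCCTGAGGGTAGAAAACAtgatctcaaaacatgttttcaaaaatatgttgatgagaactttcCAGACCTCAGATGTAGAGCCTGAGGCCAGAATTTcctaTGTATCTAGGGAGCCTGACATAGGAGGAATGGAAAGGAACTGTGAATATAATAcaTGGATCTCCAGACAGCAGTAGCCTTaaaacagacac
The third pair was G530011O06Rik on X and its copy on Y, which shared 233 of 250 bases and is not printed. The Igfbp7 loop scored 111 and 114 in Control, 64.2 and 80.3 in Brg1KD and 113 and 132 in Ino80KD, so both Brg1KD values lay under the other 4. The Vmn2r121 loop scored 28.3 and 38.0 in Control, 29.0 and 37.0 in Brg1KD and 28.9 in Ino80KD 1, and was not listed in Ino80KD 2. Such sharing was uncommon among loops with an annotated promoter window at both ends: 7 of 884 interchromosomal loops had it (0.792%), against 84 of 4186 intrachromosomal loops with ends over 20 kb apart (2.01%). Among the 128 interchromosomal loops of this kind listed in at least 2 libraries, 4 had it.

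The first question was how often promoters looped to other chromosomes and whether depletion of either remodeller changed this. Control 1 and Control 2 listed 2720 and 2942 interchromosomal loops, Brg1KD 1 and Brg1KD 2 listed 3809 and 2600, and Ino80KD 1 and Ino80KD 2 listed 2812 and 2405. With the loops of the left-out bait taken from the total too, these made up 15.1% and 17.0%, 23.7% and 16.7%, and 16.1% and 14.6% of a list. Brg1KD 1 was the highest library, and the other 5 lay between 14.6% and 17.0%. The group means were 16.0% ± 1.34 in Control, 20.2% ± 4.95 in Brg1KD and 15.3% ± 1.08 in Ino80KD (SD, n = 2 each).

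The share in Brg1KD was 4.19 percentage points above Control (exact two-sided permutation p = 0.67, adjusted p = 0.80 over 6 comparisons). In batch 1 alone the difference was 8.64 points, and without Brg1KD 1 it was 0.684 points. The share in Ino80KD was lower than in Control by a difference of -0.70 points (exact permutation p = 0.67, adjusted p = 0.80), and in batch 1 the difference was 1.00 points in the other direction. Between the depletions the difference, Ino80KD minus Brg1KD, was -4.89 points (exact permutation p = 0.33, adjusted p = 0.80), and -7.63 in batch 1. With 2 libraries against 2 no p can fall under 0.33, so no difference in share could pass the threshold. The mean numbers, 2831 ± 157, 3204.5 ± 855 and 2608.5 ± 288, gave exact permutation p-values between 0.67 and 1.0.

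The excess of Brg1KD 1 lay at the lowest scores. Between scores of 5 and 6 it listed 1368 interchromosomal loops, against 298 to 434 in the other libraries. From a score of 10 upwards its list held 1550, Brg1KD 2 held 1521, the Control lists 1718 and 1755, and the Ino80KD lists 1751 and 1475. Its interchromosomal loops came from 2557 baits, against 1003 to 1300 elsewhere. The intrachromosomal loops of the same list numbered 12254, the fewest of the 6 lists. The part of library depth in this excess was not tested.

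**Figure D1:**
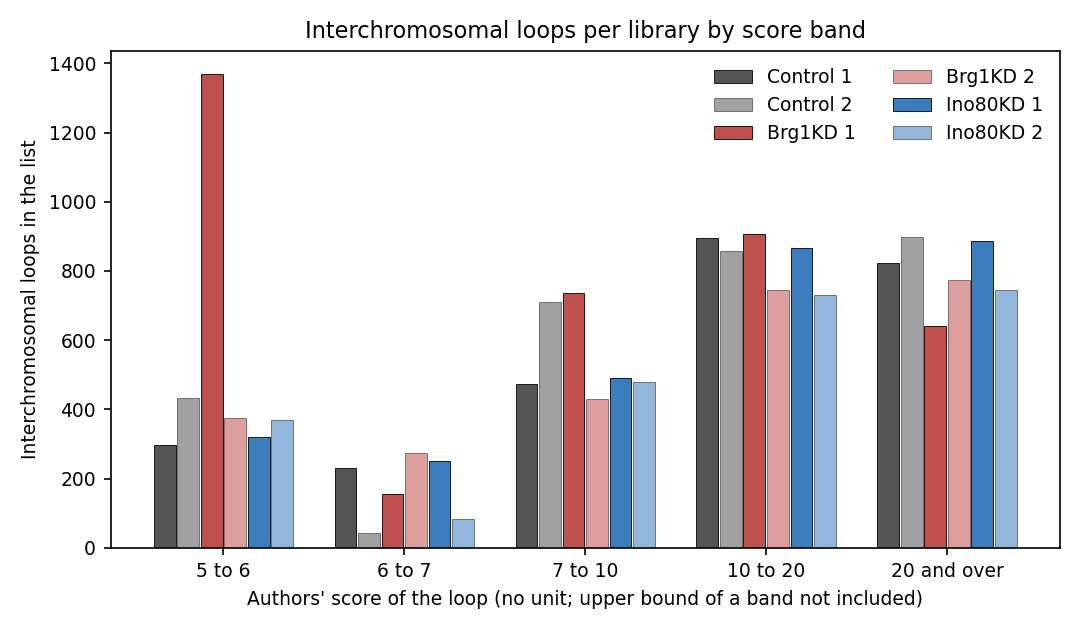
Number of interchromosomal loops (vertical axis) by band of the authors' score (horizontal axis, no unit), 1 bar per library, with replicate 2 in the paler shade. Brg1KD 1 stands at 1368 in the lowest band where the other 5 libraries hold 298 to 434, and in the band of 20 and over it is the lowest, at 642.

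Interchromosomal loops scored higher than loops within a chromosome in the same list. The median score was 11.4 ± 1.25 against 5.94 ± 0.0385 (SD, n = 6 libraries), higher in 6 of 6 libraries (exact two-sided sign permutation p = 0.031, the smallest that 6 libraries allow). Among loops scoring 20 or more, 90.2% to 93.7% of each list were interchromosomal. The meaning of the score was not given in the sources used here, so a higher score is not shown to be a stronger contact. Score values also recurred. Among interchromosomal loops found in 1 library alone, the 5 most frequent values held 36.1% to 44.8% of the loops per library. The test of the median score and the 6 tests that follow of features of the loops were adjusted together. All 7 had an adjusted p = 0.031 by the exact sign permutation. The lists shared loops, and 497 interchromosomal loops were in all 6 with identical ends. These p-values therefore describe the lists and do not show that a feature holds over independent loops.

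Pseudogenes were often annotated at their ends. In Control 1 and 2, 32.2% and 29.5% of interchromosomal loops had a pseudogene overlapping an end, in Brg1KD 20.5% and 28.7%, and in Ino80KD 32.6% and 33.0%. The share was 29.4% ± 4.72 between chromosomes and 13.2% ± 0.576 within them (SD, n = 6), higher in 6 of 6 libraries. Loops with a bait at both ends made up 7.33% ± 2.30 against 3.89% ± 0.966, higher in 6 of 6 libraries. That order turned around above a score of 10, where the difference was -0.924 points (exact sign permutation p = 0.0625).

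Loops joining named copies of the same gene were far more frequent between chromosomes than within them. An end was credited with every gene within 2 kb, and copies were recognised by symbol. Counted were a gene and its -ps or -rs derivative, different derivatives of the same gene such as Rpl9-ps6 and Rpl9-ps4, and numbered copies of a miRNA. In each library 1.5% to 4.13% of interchromosomal loops joined such a pair, on average 3.05% ± 0.933, against 0.0636% ± 0.0105 of intrachromosomal loops (SD, n = 6), higher in 6 of 6 libraries. How many named copies lie on the same chromosome was not counted, so the difference between and within chromosomes has no baseline. By identical ends the interchromosomal loops of this kind were 199 of 10204, with a share of 1.13% among those in 1 library and 4.02% among those in all 6.

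Rnps1, which takes part in exon junction complexes, met the bait of Rnps1-ps through 2 adjacent ends in all 6 libraries. The end at chr17:24420001-24425562 scored 80.0 and 41.9 in Control, 77.3 and 41.3 in Brg1KD and 198 and 148 in Ino80KD. The end at chr17:24415415-24420000 scored 41.5 and 61.0 in Control, 49.0 and 14.1 in Brg1KD and 67.96 and 59.1 in Ino80KD. Hdac1, a histone deacetylase, met the bait of Hdac1-ps with 97.7 and 36.85 in Control, 36.0 and 26.55 in Brg1KD and 70.0 and 34.3 in Ino80KD. The bait of Rps10, a ribosomal protein gene, met Rps10-ps2 with 69.5 and 27.4 in Control, 13.8 and 20.1 in Brg1KD and 69.95 and 11.7 in Ino80KD. Control and Ino80KD overlapped in the Hdac1 and Rps10 loops and at the second Rnps1 end, and both Ino80KD scores lay above the other 4 at the first Rnps1 end. These 4 loops were picked from the 20 such loops in all 6 libraries after their values were seen.

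**Figure D2:**
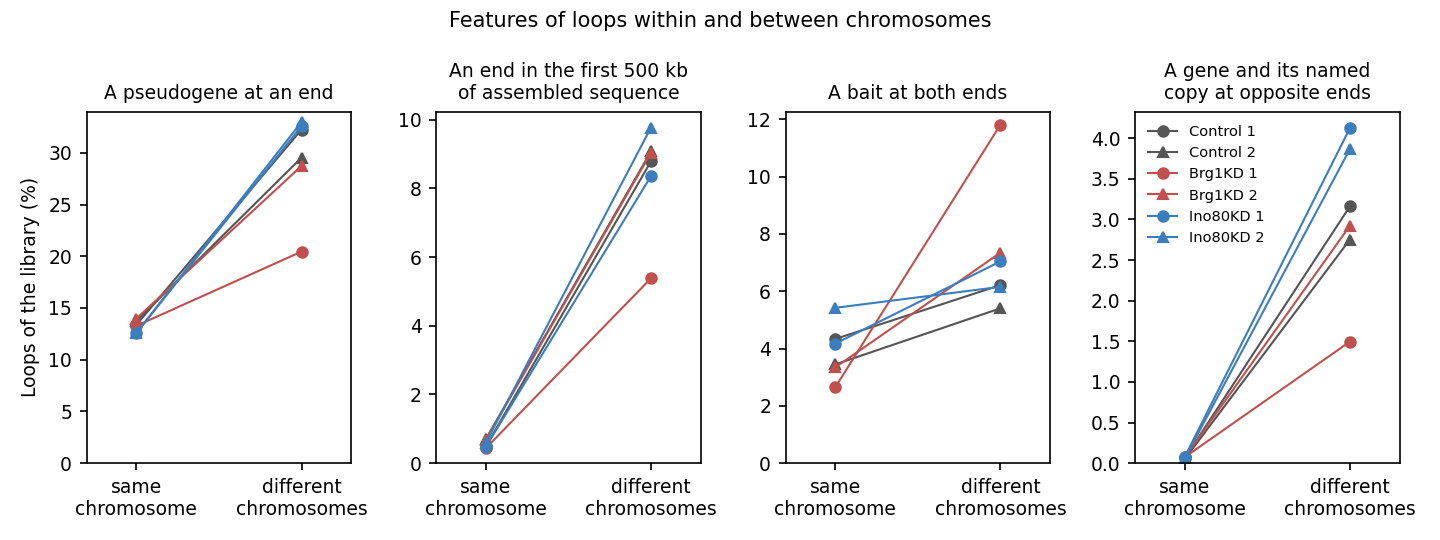
Share of loops (percent, vertical axes) with each of 4 features, for loops within a chromosome (left) and between chromosomes (right), with 1 line per library. Every line rises from left to right in all 4 panels, and Brg1KD 1 ends lowest for pseudogenes, at 20.5%, and highest for a bait at both ends, at 11.8%.

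Loops between chromosomes joined like ends of chromosomes. Of interchromosomal loops from baits in the last 5 Mb of a chromosome's annotated sequence, 49.7% and 49.8% in Control reached the last 5 Mb of another chromosome, 37.3% and 46.6% in Brg1KD, and 48.5% and 49.5% in Ino80KD. From all other baits it was 3.94% to 4.72%. The means were 46.9% ± 4.83 and 4.33% ± 0.315 (SD, n = 6), a difference of 42.6 points in 6 of 6 libraries (exact sign permutation p = 0.031). On autosomes alone the difference was 20.5 points, again in 6 of 6 libraries.

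The same held at the start of the assembled sequence, which on mouse chromosomes begins at 3 Mb and lies next to the centromere. Of loops from baits in its first 5 Mb, 27.0% ± 2.23 reached the first 5 Mb of another chromosome, against 5.12% ± 0.575 from all other baits (SD, n = 6; exact sign permutation p = 0.031, higher in 6 of 6 libraries). On autosomes the difference was 22.2 points, close to the 21.9 points over all chromosomes. Unlike ends rarely met: distal baits reached a proximal end in 0.955% ± 0.640 of their loops, and proximal baits a distal end in 0.889% ± 0.728. Baits between the end regions reached distal ends in 4.87% ± 0.272 of loops and proximal ends in 5.50% ± 0.676. Within the first 500 kb of assembled sequence alone lay an end of 8.40% ± 1.55 of interchromosomal and 0.557% ± 0.111 of intrachromosomal loops, higher in 6 of 6 libraries. These were 205 to 267 interchromosomal loops per list. The baits in Sfi1 at chr11:3186616-3190172 and chr11:3192668-3194027 alone gave 67 to 101 and 23 to 37 of them. Both also count among the baits of the first 5 Mb, which listed 321 to 398 loops per library. The shares without these baits were not computed.

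Few chromosomes made up the distal contacts. Over the 6 lists 578 entries joined distal ends, of 40 pairs of chromosomes, and 143 of them joined X and Y, where Mid1 spans the boundary of the pseudoautosomal region. Chromosomes 4 and 13 were joined by 70 entries, 4 and X by 56, 4 and Y by 54, 9 and Y by 49, and 11 and 13 by 44. Proximal ends were joined by 578 entries of 53 chromosome pairs. Distal to distal loops made up 3.54% ± 0.146 of the interchromosomal loops in Control, 2.78% ± 0.587 in Brg1KD and 3.93% ± 0.0275 in Ino80KD (SD, n = 2 each). Proximal to proximal loops made up 3.88% ± 0.285, 2.85% ± 0.870 and 3.52% ± 0.144 of the interchromosomal loops. The groups were not tested on these shares.

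**Figure D3:**
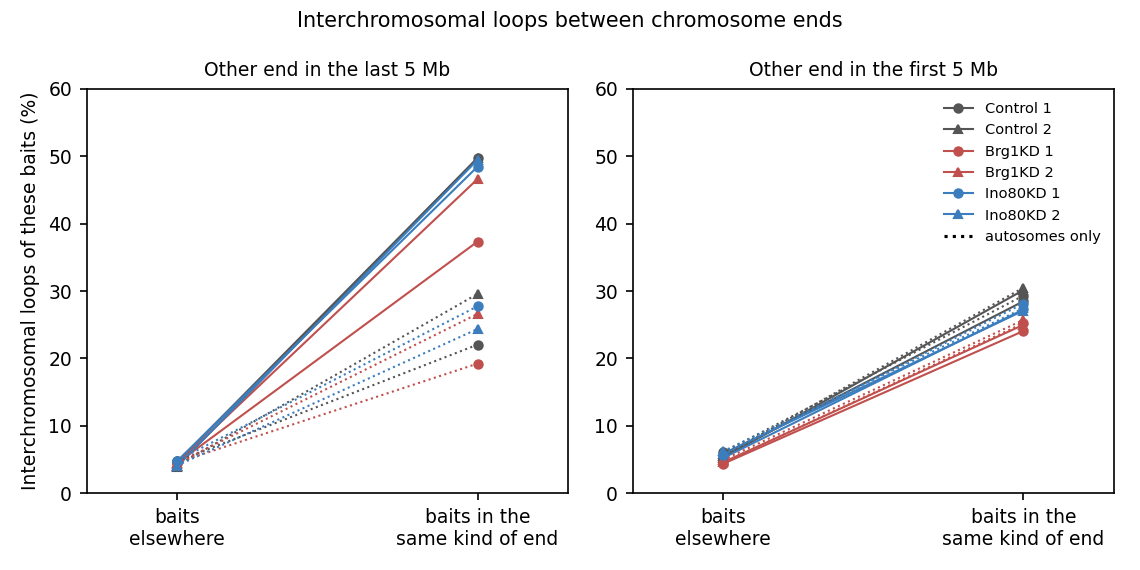
Percent of interchromosomal loops whose other end lies in the last (left) or first (right) 5 Mb of a chromosome, for baits elsewhere and baits in the same kind of end. There is 1 line per library, solid for all chromosomes and dotted for autosomes only. All lines rise, to 37.3% to 49.8% at distal ends over all chromosomes and to 24.1% to 30.2% at proximal ends.

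Some of the 10 end blocks of 100 kb met by most different baits lay at these distal ends. A 100 kb block on Y (chr Y, from 90700001) holding Mid1-ps1 was met by 37 baits, of which 18 lay on chromosome 4, among them Agrn, Isg15, Samd11 and Tnfrsf18, and 13 on chromosome 9, among them the chemokine receptor genes Ccr1, Ccr2, Ccr9 and Xcr1. The block of Tmem267 near the end of chromosome 13 was met by 26 baits, 19 of them on chromosome 4. The Erdr1 block of X was met by 25 baits, 17 on chromosome 4 and 7 on chromosome 9. The neighbouring block of X, holding Mid1, was met by 22 baits, 12 on chromosome 4, 7 on chromosome 9 and 3 on Y. In each library the blocks of Mid1-ps1, Tmem267 and Erdr1 were met by 13 to 17, 7 to 16 and 6 to 12 baits.

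The block met by most baits lay on chromosome 12, from 20200001, and was met by 43 baits. Of these 29 lay on chromosome 7 and 14 on chromosome 4, and 28 were baits of olfactory receptor genes and 10 of zinc finger protein genes. In the 6 libraries it was met by 14 to 23 baits. A block of chromosome 14 holding Il17rd and Arhgef3 was met by 18 baits, all on chromosome 8, including Zfp330, Il15, Inpp4b and Ucp1, the uncoupling protein of brown fat. At the starts of assembled sequence, a block of chromosome 11 holding Sfi1 was met by 25 baits on 8 chromosomes, of which 8 lay on chromosome 2, among them Suv39h2 and Dclre1c. The first block of chromosome 4 was met by 22 baits on 8 chromosomes, and one of chromosome 16 from 3200001 by 19 baits on 10 chromosomes. The block of Gm35599 on chromosome 15 was met by 19 baits spread over 13 chromosomes. Of 5792 blocks met by an interchromosomal loop, 4596 were met by a single bait.

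Loops also gathered on few baits. The 1% of baits with most interchromosomal loops held 13.7% ± 0.139 of them in Control, 13.6% ± 1.47 in Brg1KD and 14.5% ± 2.36 in Ino80KD (SD, n = 2 each). A bait in Sfi1 (chr11:3186616-3190172), whose product acts at centrosomes, listed 77 and 98 loops in Control, 74 and 100 in Brg1KD and 67 and 101 in Ino80KD, on 19 other chromosomes. Replicate 2 exceeded replicate 1 in every group. The bait beside Rn18s-rs5 (chr17:39843954-39845813), named for 18S ribosomal RNA, listed 44 and 30, 33 and 28, and 41 and 67 loops on 18 chromosomes. A second bait in Sfi1 (chr11:3192668-3194027) had 170 entries on 18 chromosomes, that of Pes1, a gene of ribosome biogenesis, had 119 on 3, and that of Fau and Mrpl49 had 167 on 2. In contrast, the baits of Rogdi, Tshz2, Haus7 and Mdh1 with Wdpcp, with 117 to 148 entries each, looped to 1 other chromosome.

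Loops were next grouped into locus pairs, in which both ends lay within 5 kb of those of another loop. There were 7616 locus pairs: 6696 held 1 loop, called isolated, 506 held 2, and 414 held 3 or more, called broad. Most pairs, 6060, were in a single library, 506 were in 2, and 378 were in all 6. Of the 414 broad pairs 233 were in all 6 libraries. By identical ends the median score was 7.19 for loops in 1 library and 47.8 for those in 6, and a pseudogene lay at an end of 18.5% of the former (95% Wilson interval 17.6% to 19.4%) and 35.6% of the latter (31.5% to 39.9%).

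Loops of broad pairs were mostly found again in the other replicate and isolated loops seldom, a contrast partly set by the definitions. In the other library of the group, 86.6% ± 1.16 of loops of broad pairs were found again in Control, 83.1% ± 6.19 in Brg1KD and 86.7% ± 1.45 in Ino80KD (SD, n = 2 each). For isolated loops it was 16.9% ± 1.57, 7.83% ± 4.29 and 18.3% ± 2.84. Both kinds were defined over all lists, so an isolated loop could be found again only with identical ends. A loop of a broad pair could also be found again through a neighbouring loop. These shares are therefore a description and not a like comparison. For all interchromosomal loops it was 56.4% ± 2.30, 38.4% ± 11.7 and 57.4% ± 4.16, and for intrachromosomal loops 49.8% ± 0.689, 46.0% ± 0.987 and 50.9% ± 1.27. Brg1KD 1 listed 2564 isolated loops, against 913 to 1217 in the other libraries, and 918 loops of broad pairs, against 1104 to 1290.

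The leading locus pairs were listed in all 6 libraries with scores of 206 or more. First came the bait of Trim7, a tripartite motif ubiquitin ligase (chr11:48825020-48827775), with an end in Fam169a on chromosome 13 (chr13:97080001-97098556). It scored 956 and 810 in Control, 352 and 510.5 in Brg1KD and 854 and 1080 in Ino80KD, and both Brg1KD values lay under the other 4. A pseudogene overlapped its bait and its other end.

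The second was the bait of Fau and Mrpl49 (chr19:6056768-6058871), genes of a ubiquitin-like fusion of a ribosomal protein and of a mitochondrial ribosomal protein, with the promoter of Inafm2 on chromosome 2 (chr2:118740001-118760000). It scored 679 and 600 in Control, 489 and 575 in Brg1KD and 573 and 536 in Ino80KD. The depletion groups overlapped each other, and all their scores lay under both Control scores. This pair held 38 different loops over a run of 460 kb, and 8 baits on chromosome 2 looped back to chromosome 19. No pseudogene overlapped either of these 2 ends.

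Haus7, which encodes a subunit of the augmin complex of the spindle (chrX:73458305-73459664), met an end inside Ank2, the ankyrin-B gene, on chromosome 3. Its scores were 764 and 770 in Control, 300.1 and 369 in Brg1KD and 728 and 609 in Ino80KD. The bait at Hdac3 and Rell2 on chromosome 18 met an unnamed end on chromosome 8 with 540.0 and 572, 254 and 383, and 524 and 492. In both pairs the Brg1KD values were the lowest.

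Of the other leading pairs, Prdx1, a peroxiredoxin gene, met chromosome 15 with scores of 321 to 543 over the 6 libraries. Mdh1, the cytosolic malate dehydrogenase gene, met the pseudogene Gm18863 on chromosome 9 with 391 to 474. Las1l, of ribosomal RNA processing, met chromosome 2 with 383 to 516, Wars2, a mitochondrial tRNA synthetase gene, met chromosome 15 with 303 to 562, and Mad2l1, of the spindle checkpoint, met chromosome 11 with 265 to 448. Of these 5 ends, that of Mdh1 overlapped a pseudogene.

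The bait of Atf2, a bZIP transcription factor gene, met chromosome 4 with 306 to 515, and Slc31a1, the copper transporter gene, met the splicing factor gene Srsf6 on chromosome 2 with 207 to 484. Snhg12, a snoRNA host gene, met Cps1 on chromosome 1 with 250.04 to 435, Rapgefl1 met Cdk5rap2 on chromosome 4 with 310.45 to 495, and Tshz2 met chromosome 10 with 206 to 512. Mrpl19 met chromosome 5 with 457 to 702, and Cystm1 met Cd244a on chromosome 1 with 492 to 692. Baits of Sfi1 met the start of the assembled sequence of chromosomes 17 and 18 with 309 to 431 and 342 to 548, and the bait beside Rn18s-rs5 met chromosome 15 with 343 to 1300. Of the ends met in this paragraph, that of Cystm1 and that of Sfi1 on chromosome 17 overlapped a pseudogene.

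**Figure D4:**
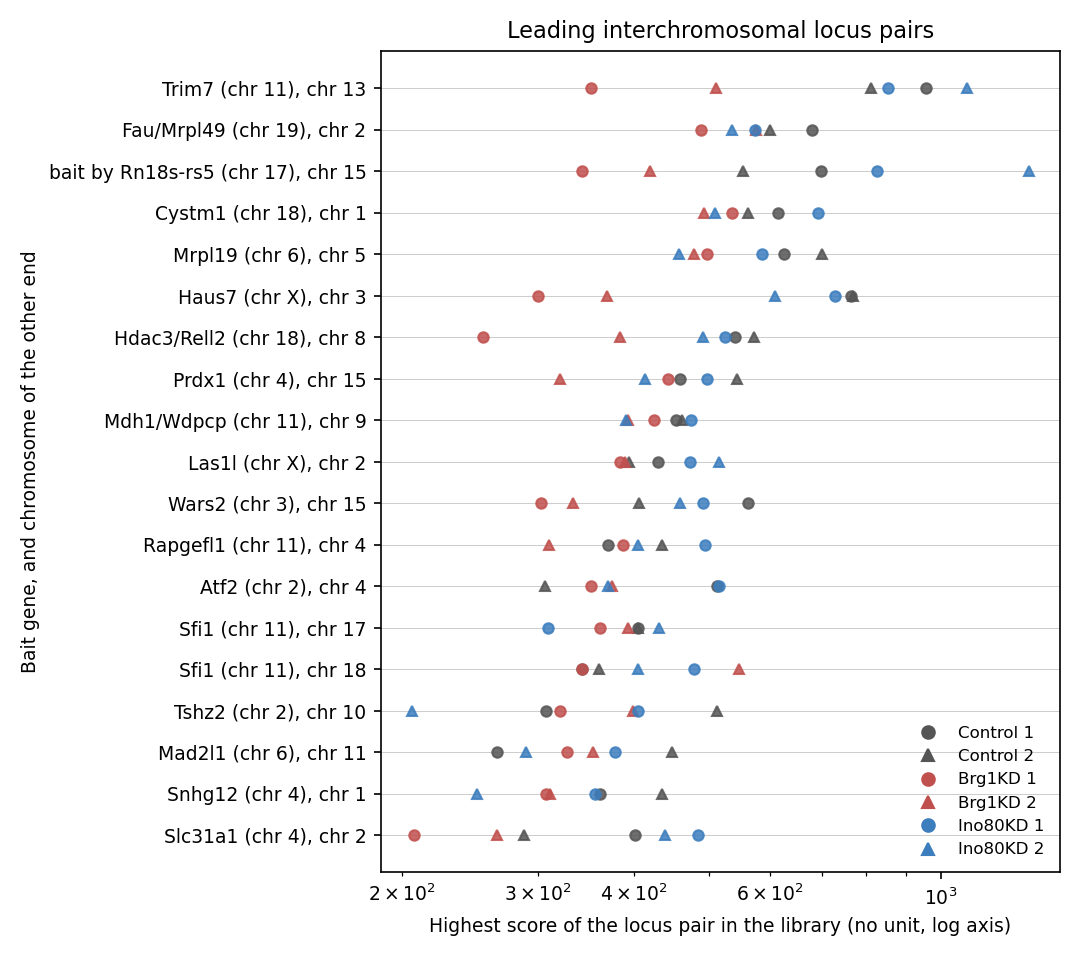
Highest score in each library (log axis, no unit) of 19 of the 20 leading interchromosomal locus pairs, 1 row per pair, with circles for replicate 1 and triangles for replicate 2. In 14 rows both Brg1KD points lie left of both Control points.

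Scores come from lists called separately, so their comparison across libraries is a description with no test. In 15 of the 20 leading pairs both Brg1KD scores lay below both Control scores, in 0 above, and in 5 the groups overlapped. Over all 378 locus pairs in all 6 lists the shares were 34.4% below and 12.2% above. For loops with identical ends in all 6 lists, 32.8% of 497 interchromosomal loops lay below and 12.3% above, against 22.5% and 12.7% of 1560 intrachromosomal loops. For Ino80KD 5 of the 20 pairs lay below and 4 above, and over the 378 pairs 18.8% and 17.5%. The median score over the 378 pairs was 42.0 and 40.9 in Control, 36.5 and 37.55 in Brg1KD and 47.3 and 38.2 in Ino80KD.

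Broad pairs had a summit. In the 51 pairs with 10 or more loops, all listed in 6 libraries, the other ends ran over a median of 240 kb (30.6 to 560 kb). In 26 of them a bait on the far side looped back. The widest by loops joined Arhgef3 on chromosome 14 to chromosome 8 with 51 loops over 480 kb. Control 1 was used to find the leading end, and in Control 1 the median score was 308 there, 44.9 at 20 kb before and 60.1 at 20 kb after. In the other 5 libraries, which did not choose it, the medians at the leading end were 310.4 in Control 2, 221 and 266 in Brg1KD and 311 and 247 in Ino80KD, against 32.4 to 50.9 at 20 kb before and 54.2 to 82.6 at 20 kb after. A loop at the leading end was listed for 90.2% to 96.1% of the pairs in those libraries, and the leading loop was the same in all 6 for 29 of 51. The 51 pairs held 543 and 568 loops in Control, 411 and 534 in Brg1KD and 535 and 498 in Ino80KD. A pseudogene overlapped the leading end of 7 of them.

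**Figure D5:**
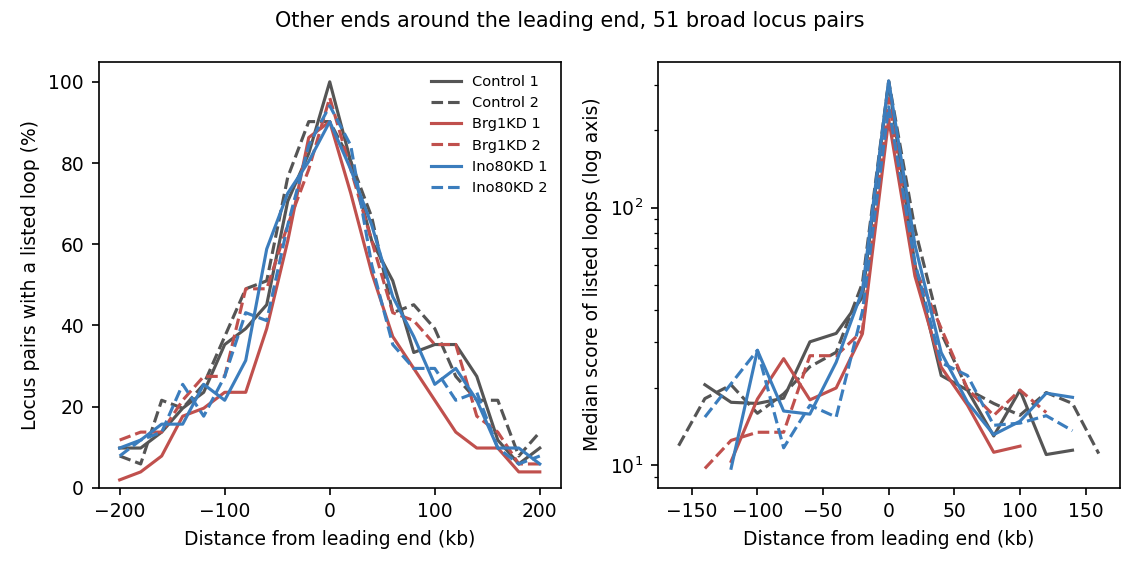
For 51 broad locus pairs, the percent with a listed loop (left) and the median score of listed loops on a log axis (right, where at least 10 pairs were listed) by distance in kb from the leading end of Control 1. Lines are libraries, dashed for replicate 2. All 6 lines of the score peak at 0, with medians of 221 to 311, and the listed percent of Control 2 is 90.2% both at 0 and at 20 kb before.

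Gene lists separated the kinds of loop. Ribosomal protein genes held 16.6 of every 1000 interchromosomal loops (median over 6 libraries, 10.2 to 19.9) and 2.85 of every 1000 intrachromosomal loops (2.5 to 3.90). In Control the value was 15.5 ± 0.638, in Brg1KD 13.8 ± 5.00 and in Ino80KD 19.7 ± 0.263 (SD, n = 2 each). Interchromosomal loops were listed for 47 ribosomal protein genes, led by Rpl41 with 27 entries and Rpl18 with 24. The genes of the 2-cell-like state, which a small part of embryonic stem cells enters, held 2.71 per 1000 (1.25 to 3.46) against 0.421, and 36 of their 41 entries came from Tcstv3.

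Of 20 gene lists, 2 were above their intrachromosomal level in all 6 libraries, the pair just named, and 12 were below in all 6. Hox genes, which pattern the body axis and cluster on few chromosomes, held 0.354 per 1000 between chromosomes against 5.54 within them. Developmental regulators held 0.386 against 5.63, clustered protocadherins 0.356 against 6.67, and replication-dependent histone genes 1.79 against 9.14. Olfactory receptors held 24.6 against 55.4 and zinc finger genes 15.6 against 27.3. Several of these lists held few interchromosomal loops: 0 to 3 per library for Hox genes, and 0 to 9 for developmental regulators and for clustered protocadherins. Trophoblast markers, with 4 baits, held 0 interchromosomal loops, against 0.222 per 1000 within chromosomes. At such low levels, lying below in all 6 libraries says little. Between 2 baits of the same list there were 3 interchromosomal loops for histone genes and 1 for zinc finger genes, each in a single library, and 0 for the other 18 lists. Pluripotency genes had 9 entries, of which 6 were at Nanog, in 3 libraries. The lists were not tested.

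Locus pairs listed in both libraries of a group and in no other library numbered 49 in Control, 15 in Brg1KD and 39 in Ino80KD. Pairs of libraries from different groups shared 18 to 50 locus pairs exclusively, so the counts of Control and Ino80KD lay inside that range and that of Brg1KD below it. Among those of Control, Gm9396 with Il1rl2 scored 41.3 and 20.9, Ccnq with a pseudogene-bearing end on chromosome 8 28.6 and 20.6, and Rps26, a ribosomal protein gene, with the pseudogene Gm7392 18.3 and 18.6. Xcr1 with chromosome Y scored 19.0 and 19.5, and Olfr746 with Cdh8 scored 19.0 and 18.4. In Brg1KD, Fam171a1 with Litaf scored 20.96 and 20.5, and a bait in Rpl32 with Olfr180 scored 20.0 and 11.7. Ppp2r3d with chromosome 15 scored 16.5 and 16.8, and Gm6116 with Rab3ip scored 17.9 and 10.4. The Gm6116 pair lay just beyond the 5 kb used to join loops from a pair listed in all 6 libraries. In that neighbouring pair the bait of Rab3ip on chromosome 10 met chr5:74686908-74940000 with top scores of 23.3 to 44.7. In Ino80KD, Terf2ip, of the telomere complex, with Spata6 scored 22.5 and 34.7 with a pseudogene at both ends, and Hmgn2, a nucleosome-binding protein gene, with Gm7931 scored 42.6 and 17.1. Rbpj with an end in Cntnap2, which was credited with the pseudogene Rbpj-ps3, scored 21.3 and 20.1. 4930522P08Rik with Gm19037 scored 19.7 and 19.4, and LOC108167320 with chromosome 16 scored 19.7 and 17.9. Of 218 locus pairs in exactly 4 libraries, both Control lists lacked 11, both Brg1KD lists 26 and both Ino80KD lists 8. Those lacking from 2 libraries of different groups were not counted by library pair, so these numbers have no reference. The Brg1KD lists also held the fewest loops of broad pairs, 918 and 1104.

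By length, the sex chromosomes had fewer such ends than the median autosome. Isolated other ends fell on X at 3.46 ± 1.95 per 10 Mb (SD, n = 6), against means of 4.10 on chromosome 18 to 6.37 on chromosome 8 among 19 autosomes, and X lay under the median autosome in 6 of 6 libraries but under every autosome in 1. The value on X was 7.32 in Brg1KD 1 and 1.99 to 3.11 in the other 5 libraries. Ends of broad pairs fell on X at 1.94 ± 0.403 per 10 Mb, against 2.20 on chromosome 19 to 9.32 on chromosome 8, and X lay under every autosome in 4 libraries. The Y chromosome had 1.54 ± 0.530 isolated and 0.954 ± 0.0568 broad ends per 10 Mb. Counted by baits, X was not low. Its baits listed 8.88 ± 6.91 isolated loops per 100 baits, against 4.76 on chromosome 15 to 9.53 on chromosome 14. For loops of broad pairs it was 5.85 ± 0.805 against 2.44 to 11.7 on the same 2 autosomes. The 4 baits of Y listed 54.2 ± 36.8 isolated loops and 421 ± 99.3 of broad pairs per 100 baits. A male cell carries 1 X and 1 Y chromosome, and the part of copy number was not tested.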

How the data were processed

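Promoter-capture Micro-C, in which crosslinked chromatin is cut by micrococcal nuclease, ligated and enriched for promoters, was made from 6 libraries. The authors deposited 1 list per library giving bait, other end and a score, and 1 list of positions per group. The loop caller and the meaning of its score were not given in the sources used here. The submitters' processing notes name mm10 and bedtools. The authors' deposited comparison tables, whose log2 fold changes are per the file headers, hold 0 interchromosomal loops and were not used further. The group lists held every interchromosomal loop of their libraries.

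Loops were matched where both ends lay within 5 kb and joined into locus pairs by single linkage, a step tested on simulated data. Ends were named from RefSeq GRCm38.p6 by a promoter window on the end, then within 2 kb, then an overlapping gene. Named were the 20 locus pairs in most libraries, ranked by score percentile and counted once per pair of 1 Mb blocks, the 10 baits with most loops, the 10 blocks of 100 kb met by most baits, and the 5 leading pairs of each group alone; others were chosen after their values were seen. Of these, 2 locus pairs, 1 of them also among the baits, and 1 bait of a block are not reported here by name, though counts include them. Group comparisons used exact two-sided permutation tests of 2 against 2 libraries, and features exact sign permutation over 6 libraries (python 3.11.15), with Benjamini-Hochberg adjustment. Wilson intervals at 95% cover counting error only. The members, lists and tests were chosen with earlier results of these data known, and the feature and chromosome end tests after seeing the lists. Replicate 1 shares batch 1 in all groups and replicate 2 shares batch 3 in both depletions, so the numbers pair the depletions with each other; for Control the second number marks another batch.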

Additional observations from a re-analysis of the deposited data

Results flagged for a closer look

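The bait on chromosome 2 that was left out of the loops described above (chr2:98661117-98662976) listed more interchromosomal loops in each depletion library than in either Control library. Control 1 and 2 listed 940 and 827, Brg1KD 1 and 2 listed 1445 and 953, and Ino80KD 1 and 2 listed 1047 and 1096. The difference was not tested, and Brg1KD 1 was also the highest library among the loops of all other baits.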

How the results depend on the processing

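No difference between groups passed its threshold under any setting run, and with 2 libraries a group none could. The share in Ino80KD minus Control turned to 0.321 points with the left-out bait included and to 1.00 in batch 1 alone, and ranged from -1.65 to 0.244 when 1 library was left out. The number in Brg1KD minus Control turned to -210.0 at a minimum score of 7 and -201 at 10, and ranged from -231, without Brg1KD 1, to 978. The number in Ino80KD minus Control was 92 in batch 1, and that in Ino80KD minus Brg1KD was 77.5 at a minimum score of 10 and ranged from -1200.5 to 8.5, the latter without Brg1KD 1. With the replicate number as a block the differences in share stayed 4.19, -0.70 and -4.89 points, with exact permutation p-values of 1.0, 1.0 and 0.50, the smallest that such pairs allow being 0.50. The share found again was 42.3% in Control and 42.6% in Ino80KD for identical ends, 62.2% and 62.8% within 20 kb, and 67.1%, 56.97% (Brg1KD) and 66.4% at a minimum score of 10. At that minimum a bait lay at both ends of 3.23%, 2.87% and 4.195% in Control, Brg1KD and Ino80KD, the 1% of baits with most loops held 9.84%, 10.03% and 10.5%, and bait at both ends turned to -0.924 points between against within chromosomes. Leaving out 1 library kept the sign of every feature difference, with 5 libraries and so no exact permutation p under 0.0625: 5.26 to 5.92 for the median score, 2.29 to 3.98 points for a bait at both ends, 15.3 to 17.98 for pseudogenes, 7.58 to 8.42 for the first 500 kb, 2.78 to 3.30 for named copies, 41.9 to 44.5 for distal and 21.3 to 22.3 for proximal ends. The causes were not tested. Unknown depth limits any reading of a loop missing from a list.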

Other observations

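Vomeronasal receptor genes, the pheromone receptors, held a median of 7.44 of every 1000 interchromosomal loops (1.25 to 14.4 over 6 libraries) and 7.36 of every 1000 intrachromosomal loops (6.20 to 10.8). Genes of BAF subunits, the complex built on Brg1, held 1.54 (1.07 to 2.38) against 1.63. Genes of INO80 subunits, with 8 baits and 0 to 1 interchromosomal loops per library, held 0 (0 to 0.263) against 0.610. Keratin genes held 5.19 (4.04 to 6.30) against 12.6, cytochrome P450 genes 1.13 against 5.27, and polycomb genes 0.400 (0 to 1.31) against 1.77. These values were not tested.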
